A study of Mus musculus with 24 samples.

Results

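The genes of the large (60S) subunit of the cytosolic ribosome were followed through 24 RNA libraries of the mouse GT1-7 line, transformed neurons of the hypothalamus that secrete GnRH (gonadotropin-releasing hormone). Members were all protein-coding rows whose symbol is that of a large-subunit ribosomal protein (Rpl with a number, its paralogue rows such as Rpl22l1, and the stalk proteins Rplp0 to Rplp2). The rule took 52 of the 57010 gene rows and used no measured value. The series asks what the RNA-binding protein Mkrn3, a makorin with zinc fingers and a RING domain, does to RNA in these cells.

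Large-subunit proteins fold around the ribosomal RNA that joins amino acids, and cells make them in fixed proportion. Their mRNAs are short, stable and abundant, and many begin with a C followed by a run of pyrimidines, the 5' terminal oligopyrimidine tract, through which translation of the whole family is switched by mTOR signalling and the binding protein Larp1. Free Rpl5 and Rpl11, which enter the subunit together with the 5S ribosomal RNA, are also known for binding Mdm2 and so stabilising p53.

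The RNA immunoprecipitation (RIP) experiment held 12 libraries. GT1-7 cells were given 6 µg of a plasmid for either GFP fused to Mkrn3 (GFP-Mkrn3) or GFP alone for 24 h, and RNA was read from the material held by GFP-binding beads (IP) and from 5% of the lysate (input). The 4 groups were GFP-Mkrn3 IP, GFP-Mkrn3 input, GFP IP and GFP input. The fractionation experiment held the other 12 libraries, from cells labelled Mkrn3ox, which stably express GFP-Mkrn3, and from unmodified wt cells, each as cytoplasmic and as total RNA. Every group had 3 libraries. The labels do not say whether the stable line is a single clone, and none states that replicate libraries are separate cultures. The p-values below therefore reflect the scatter among libraries alone, and that scatter may be technical. All libraries were made by CEL-seq2, which reads the 3' ends of polyadenylated RNA.

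RIP libraries held 6254703 to 14575652 counts and fractionation libraries 374386 to 759271. The Mkrn3 row held 86579 to 141568 counts per GFP-Mkrn3 IP library and 28280 to 32451 per GFP-Mkrn3 input, against 33 to 60 in the GFP IP and 36 to 60 in the GFP input. In the fractionation table it held 0 counts in every Mkrn3ox total library and 0 to 5 in the Mkrn3ox cytoplasm, against 0 in wt total RNA and 0 to 1 in the wt cytoplasm. This row therefore does not check the Mkrn3ox labels, and below Mkrn3ox means the libraries labelled so. Gnrh1, the hormone gene that defines the line, was present in all 24 libraries (11 to 86 counts in fractionation, 449 to 3060 in RIP). Of the other 7 neuronal markers, Snap25 was at 0 in all RIP libraries, while Map2 (395 to 823 counts) and Eno2 (574 to 1836) were present. Of 13 markers of glia, fibroblasts, endothelium and immune cells, Mog, Aqp4 and Ptprc were at 0 in RIP, and Col1a1 was the most abundant (140 to 576 counts).

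A gene entered a test only if its counts passed a filter on low values. In RIP 47 of the 52 members passed, with a median of 818 counts per library. In fractionation only 27 passed, with a median of 17.8 counts per library, and the other 25 had a median of 3. Levels are given as CPM, counts scaled to the library size with the TMM method. Changes are log2 fold changes from edgeR's quasi-likelihood test, and a member is called at a Benjamini-Hochberg adjusted p under 0.05 over all tested genes of the table (13052 in RIP, 5033 in fractionation).

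As a family, large-subunit mRNAs took a smaller share of the pulled-down RNA than of the lysate, and GFP-Mkrn3 material held more of them than GFP material. Their share of all counts was 0.544% ± 0.0523 in the GFP-Mkrn3 IP and 0.691% ± 0.0214 in the GFP-Mkrn3 input, and 0.302% ± 0.00493 in the GFP IP and 0.736% ± 0.00954 in the GFP input (SD, n = 3 each). The IP libraries lay below all inputs of their plasmid, and the GFP-Mkrn3 IP libraries above all GFP IP libraries. The GFP-Mkrn3 IP share was 1.80 times that of the GFP IP. Each of these differences gave p = 0.1 in a two-sided exact permutation test, the smallest that 3 against 3 libraries allow. Where different cells are compared, as between the plasmids or the lines, fewer cells with these mRNAs and less per cell cannot be told apart. The share of small-subunit ribosomal genes showed the same order, at 0.494% to 0.515% in the GFP-Mkrn3 IP and 0.739% to 0.783% in its input, and at 0.268% to 0.284% in the GFP IP and 0.744% to 0.823% in its input.

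**Figure D1:**
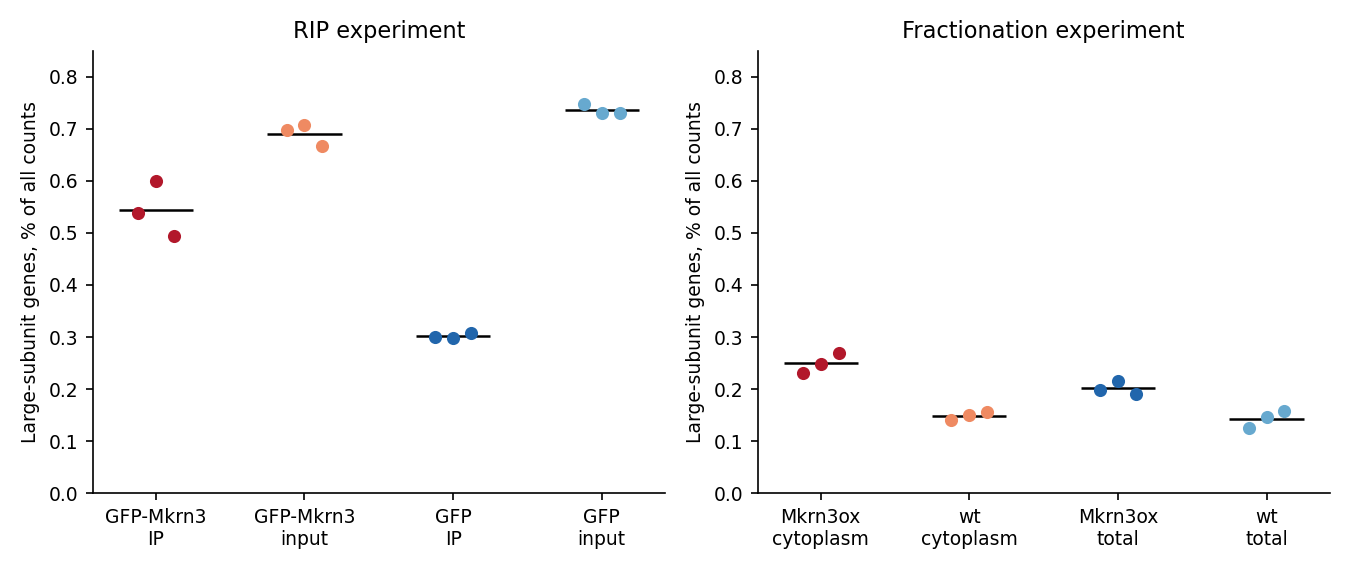
Share of all counts held by the 52 large-subunit genes (y axis, percent) in each library (points) by group (x axis), with the group mean as a line, for RIP (left) and fractionation (right). The GFP-Mkrn3 IP libraries lie between 0.495% and 0.599%, below their inputs (0.667% to 0.708%), and the GFP IP libraries between 0.299% and 0.308%, below theirs (0.73% to 0.747%).

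Binding to GFP-loaded beads without Mkrn3 is the background of the experiment, and the members were depleted in it. Of the 47 tested members 43 were lower in the GFP IP than in the GFP input and 0 were higher, beside 25.2% of all tested genes lower and 25.1% higher. The median change was −1.22, against −0.00 over all tested genes. Among the marker genes, Gnrh1 was also lower in the GFP IP (−1.90) and Col1a1 was higher (0.85). The members differed widely among themselves, between −2.90 and −0.01.

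Rpl41, which encodes a very short basic peptide and was the most depleted, had 110, 139 and 134 CPM in the GFP IP against 872, 898 and 1091 CPM in the GFP input (log2 fold change −2.90, SE 0.156, adjusted p = 1.01e-10). Its IP libraries all lay far below the inputs. Among the acidic stalk proteins, which bind translation factors on the ribosome, Rplp1 had 27.1, 30.8 and 38.8 CPM in the GFP IP against 206, 217 and 184 CPM in the input (−2.66). Rplp0, the stalk's anchor, changed by −1.90 and Rplp2 by −1.72. Rpl32 (−2.28), Rpl39 (−2.24), a protein that lines the exit tunnel, Rpl38 (−2.03), known in mouse for its part in translating Hox mRNAs, and Rpl35 (−1.95), which lies near the tunnel exit, were also far below input.

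The 4 members that did not pass the test were Rpl3, Rpl4, Rpl5 and Rpl7l1. Rpl3, which reaches towards the peptidyl transferase centre, had 182, 151 and 154 CPM in the GFP IP against 166, 157 and 167 CPM in the input, and the groups overlapped (−0.01, 95% interval −0.18 to 0.17, adjusted p = 0.962). Rpl4, a tunnel protein, changed by −0.14, Rpl5 by −0.13 and Rpl7l1, a paralogue of Rpl7 found on precursors of the large subunit, by −0.12, with adjusted p-values of 0.24, 0.458 and 0.333. The 5S partners therefore stood apart in the GFP IP, Rpl5 at −0.13 and Rpl11 at −1.28 (adjusted p = 9.75e-09), although the difference between the pair was not tested. The 4 uncalled members have long genes for this family, but so do some that were called lower. The RefSeq spans, introns included, were 5626 bases for Rpl3, 5176 for Rpl4, 8498 for Rpl5 and 8750 for Rpl7l1, against 1059 for Rpl41 and 1228 for Rplp1. Rpl22 has the longest span of all (9647 bases) and fell by 1.15 in the GFP IP, and Rpl19 (8491 bases) fell by 0.95. Across the 47 members the log10 of the span and the GFP IP change had r = 0.565 and rho = 0.38, and the span and the GFP-Mkrn3 IP change had r = 0.0445 and rho = −0.0518. These are descriptions over genes that share the same libraries, and transcript lengths were not used here.

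The annotated starts of members at both ends of the GFP IP are shown because the family is known for its pyrimidine starts. Each window runs from 10 bases before to 20 bases from the RefSeq start (GRCm38.p6), 5' to 3' on the transcribed strand, and capitals mark the longest stretch that starts with a C and goes on with at least 4 further C or T (a run of 5 or more), searched on that strand only. Shorter runs in the same window are left in lower case. The first 5 belong to depleted members, the next 3 to members not called, and the last to Rpl10, a member whose GFP-Mkrn3 IP mean was above its input.
Rpl41 chr10:128549149-128549178 (−): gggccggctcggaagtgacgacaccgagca
Rpl39 chrX:37085203-37085232 (−): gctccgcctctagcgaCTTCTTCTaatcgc
Rpl38 chr11:114668570-114668599 (+): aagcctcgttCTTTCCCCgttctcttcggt
Rpl35 chr2:39005112-39005141 (−): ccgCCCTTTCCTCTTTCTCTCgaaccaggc
Rplp0 chr5:115559457-115559486 (+): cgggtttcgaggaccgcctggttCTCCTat
Rpl4 chr9:64173377-64173406 (+): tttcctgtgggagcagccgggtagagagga
Rpl5 chr5:107900518-107900547 (+): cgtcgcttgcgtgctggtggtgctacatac
Rpl7l1 chr17:46782637-46782666 (−): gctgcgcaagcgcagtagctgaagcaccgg
Rpl10 chrX:74270806-74270835 (+): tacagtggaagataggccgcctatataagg

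In Rpl38 the longest run begins at the annotated start itself, while in Rplp0 it lies 13 bases after it and Rpl41 has none in the window. The RefSeq table held 47 starts for 40 of the 52 members. A run was present for 27 of these 40 (67.5%), and for 39.6% of the 27025 genes in the table. Members with a run (23 tested) had a median change of −1.27 in the GFP IP and −0.347 in the GFP-Mkrn3 IP, and members without one (12 tested) had −1.17 and −0.118. A match describes letters in this window and not a site in use.

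With GFP-Mkrn3 the members were also depleted on balance, but less, and one stood above its input. Of the 47 tested members 21 were lower in the GFP-Mkrn3 IP than in its input and 1 was higher, beside 12.8% of all tested genes lower and 13.9% higher. The median change was −0.27, against 0.03 over all tested genes. All changes lay between −1.23 and 1.27.

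Rpl36 was the member above its input. It had 76.1, 110 and 29.5 CPM in the GFP-Mkrn3 IP against 25.8, 27.9 and 35.9 CPM in the GFP-Mkrn3 input (1.27, SE 0.323, adjusted p = 0.00692). IP libraries 1 and 2 lay above all inputs and IP library 3 within their range, so the groups overlapped. The change was 0.83 without IP library 2 and 1.64 without IP library 3, and the call held in both fits. Rpl29, a heparin-binding protein (0.62), Rpl10, which joins the subunit late (0.52), and Rpl13 (0.49) had positive values that did not pass the test (adjusted p = 0.0793, 0.0954 and 0.0771).

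Rpl41 was again the lowest, with 407, 324 and 501 CPM in the GFP-Mkrn3 IP against 1151, 932 and 803 CPM in its input (−1.23, SE 0.145, adjusted p = 1.13e-05), without overlap. Rpl35 (−0.87), Rpl28 (−0.80), Rpl35a (−0.80), Rpl22 (−0.76), an RNA-binding protein at the subunit's surface, Rpl11 (−0.72), Rpl30 (−0.70) and Rplp2 (−0.69) followed. Rpl22 had 65.7, 57.7 and 64.4 CPM in the IP against 94.9, 114 and 108 CPM in the input. Of the other stalk proteins, Rplp1 (−0.45, adjusted p = 0.0813) and Rplp0 (−0.05, adjusted p = 0.849) did not pass the test, and differences among the stalk proteins were not tested. Rplp1 was called lower under 3 of 9 alternatives and in 2 of 6 leave-outs, among them that of GFP-Mkrn3 IP library 2 (−0.77, adjusted p = 0.000335). Rplp0 was called lower in that leave-out alone (−0.38, adjusted p = 0.0175). Rpl5 (−0.42, adjusted p = 0.0251) and Rpl7l1 (−0.33, adjusted p = 0.016) were called lower, and both calls were lost when GFP-Mkrn3 IP library 2 was left out (adjusted p = 0.0911 and 0.0654) or GFP-Mkrn3 input library 2 (0.12 and 0.0685). Rpl5 also lost its call without IP library 1 (0.0843) or input library 1 (0.0554).

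**Figure D2:**
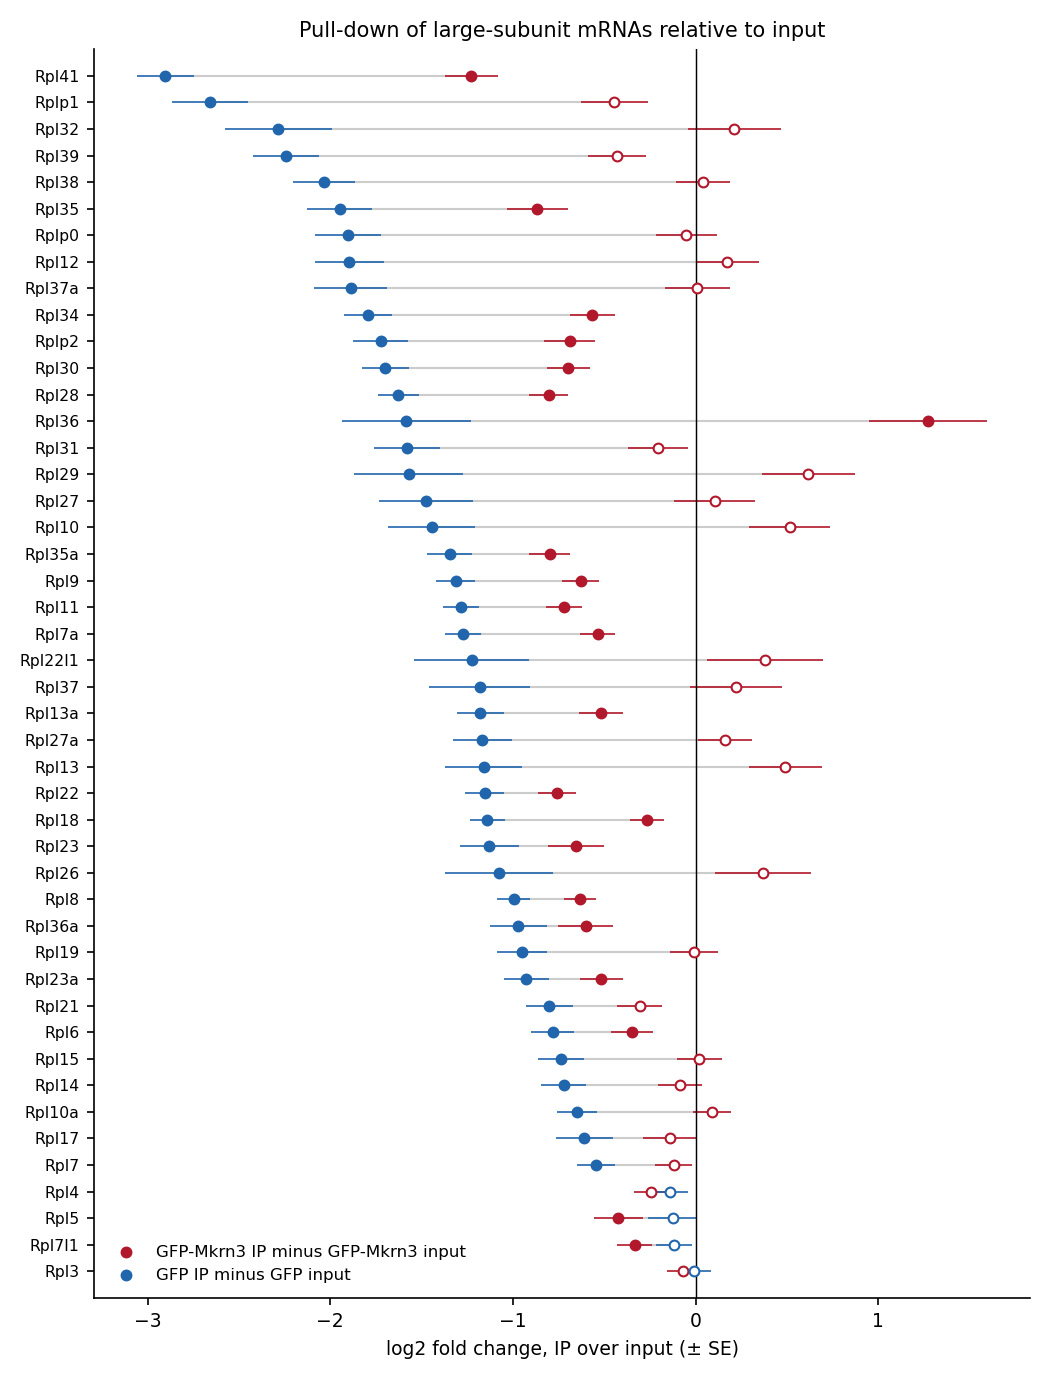
Log2 fold change of IP over input (x axis, ± SE) for the tested members except 1 (rows, ordered by the GFP value), with GFP-Mkrn3 in red and GFP in blue, filled where the adjusted p is under 0.05 and open elsewhere. The GFP values run from −2.90 (Rpl41) to −0.01 (Rpl3), while the GFP-Mkrn3 values run from −1.23 (Rpl41) to 1.27 (Rpl36).

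The difference between the plasmids was tested directly as enrichment beyond GFP, the GFP-Mkrn3 IP-over-input change minus the GFP one, in 1 model over all 12 RIP libraries. It was higher for 37 of 47 members and lower for 0, beside 13.2% of all tested genes higher and 11.1% lower. The median was 0.94, against 0.04 over all tested genes. Of these 37 members 1 (Rpl36) was called above its own GFP-Mkrn3 input, 14 were called below it and 22 were not called against it. All 37 had been called lower in the GFP IP, whose change is subtracted in this value. A positive value here therefore went, except in Rpl36, with no called rise over input in the GFP-Mkrn3 pull-down.

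The highest enrichment beyond GFP was that of Rpl36 (2.86, SE 0.479, adjusted p = 0.000434). Rpl32 had 91.5, 141 and 43.7 CPM in the GFP-Mkrn3 IP and 75.6, 80 and 84.6 CPM in its input, and 11.8, 17.8 and 20.5 CPM in the GFP IP and 80.6, 91.1 and 70.5 CPM in its input (2.50, SE 0.387, adjusted p = 0.000258). Its GFP-Mkrn3 IP overlapped its input, while its GFP IP lay below all inputs. Rplp1 had 126, 192 and 94.8 CPM in the GFP-Mkrn3 IP and 149, 218 and 197 CPM in its input (2.21 beyond GFP, adjusted p = 3.69e-05), also with overlap. Rpl29 (2.19), Rpl38 (2.07), Rpl12, at the base of the stalk (2.07), Rpl10 (1.96) and Rpl37a (1.90) completed the 8 highest. Of the remaining stalk proteins Rplp0 reached 1.85 and Rplp2 1.03. In the 5S pair Rpl11 was higher by 0.56 (adjusted p = 0.00698) and Rpl5 had −0.30 (adjusted p = 0.274).

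The 10 tested members not called beyond GFP were Rpl3, Rpl4, Rpl5, Rpl6, Rpl7l1, Rpl17, Rpl22, Rpl23, Rpl23a and Rpl36a. They include all 4 members that were not called in the GFP IP. Since the GFP IP change is subtracted in the value beyond GFP, this overlap is no separate result. Across the 47 members the GFP-Mkrn3 and the GFP changes over input, which share no library, had r = 0.13 and rho = 0.12, against r = 0.706 and rho = 0.494 over all 13052 tested genes. The GFP-Mkrn3 change was the less negative of the pair in 43 of 47 members.

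Set side by side without the inputs, 41 of 47 members were higher in the GFP-Mkrn3 IP than in the GFP IP and 3 were lower, beside 20.4% of all tested genes higher and 17.2% lower. The median was 0.80, against 0.03 over all tested genes. The highest were Rpl32 (2.49), Rpl29 (2.34), Rpl36 (2.24), Rplp1 (2.11), Rpl38 (1.84), Rpl27 (1.80), Rpl12 (1.76) and Rpl39 (1.73). Rpl29 had 42.6, 64 and 23.7 CPM in the GFP-Mkrn3 IP against 6.81, 7.48 and 12.2 CPM in the GFP IP, with no overlap. The lower members were Rpl5, Rpl3 and Rpl7l1. Rpl5 had 137, 115 and 173 CPM in the GFP-Mkrn3 IP against 248, 191 and 173 CPM in the GFP IP (−0.53, SE 0.134, adjusted p = 0.00422), and its highest GFP-Mkrn3 IP library met the lowest GFP IP library. Rpl3 had 126, 132 and 121 CPM against 182, 151 and 154 CPM (−0.36, adjusted p = 0.00396), without overlap. With library sizes alone as scaling, 42 members were higher and 1 lower, beside 31.4% and 8.84% of all tested genes, and the calls of Rpl3 and Rpl7l1 were lost. The Rpl7l1 call (−0.28, adjusted p = 0.0319) was also lost in 4 of 6 leave-outs and under 3 alternatives in all, with adjusted p-values up to 0.43.

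**Figure D3:**
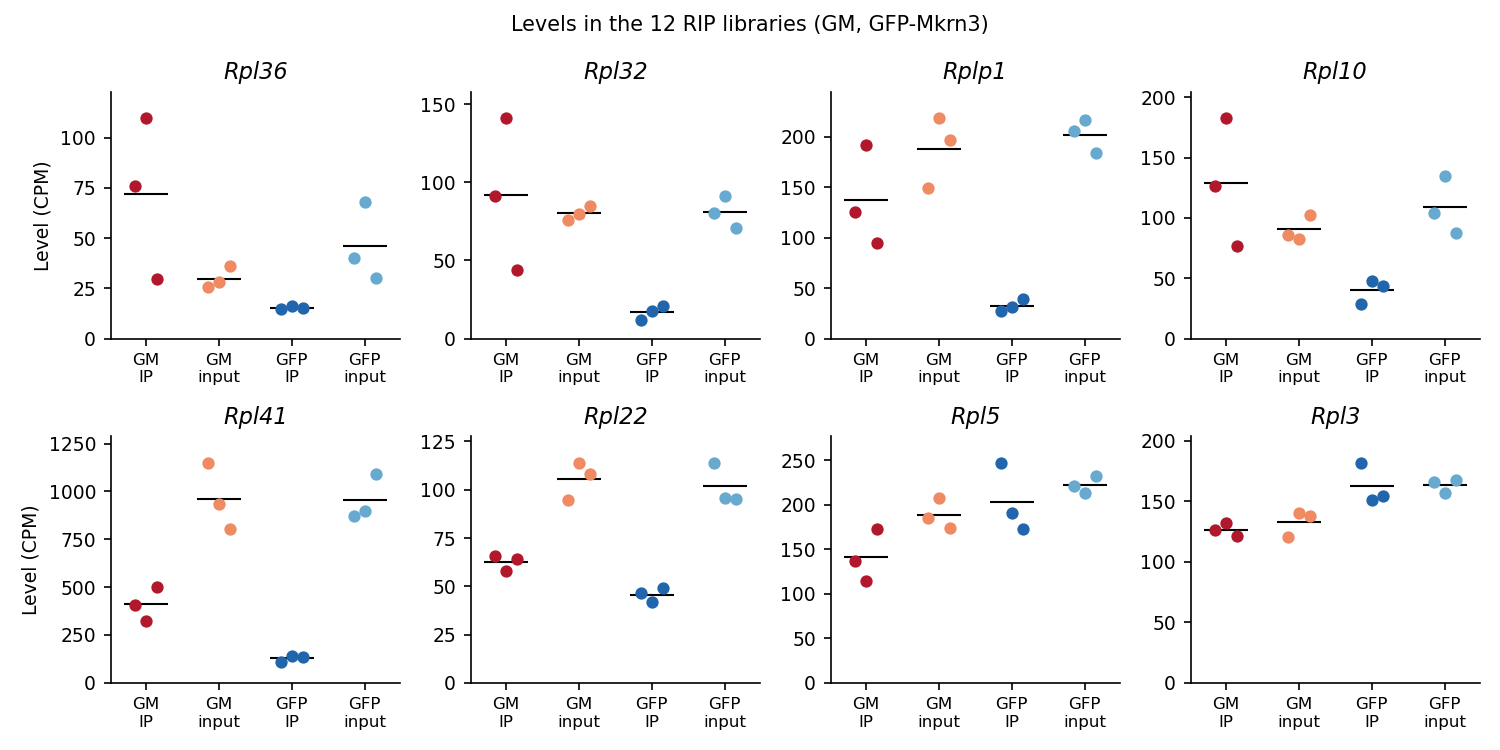
Levels (y axis, CPM) of 8 members in the 12 RIP libraries (points), with group means as lines. GM stands for GFP-Mkrn3. Rpl36, Rpl32, Rplp1 and Rpl10 in the upper row are low in the GFP IP alone, Rpl41 and Rpl22 are below input in both pull-downs, and Rpl5 and Rpl3 are near input with GFP.

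The 3 GFP-Mkrn3 IP libraries did not hold the members alike. In 27 of 47 members (57.4%) library 2 was highest, library 1 next and library 3 lowest, an order found in 29.5% of all tested genes. The 33 small-subunit genes showed it alike (57.6%). Library 2 exceeded library 3 by more than 1.5 times in 17 members (36.2%), in 33.3% of small-subunit genes and in 13.2% of all tested genes. The ratio was 3.71 for Rpl36, 3.22 for Rpl32 and 2.70 for Rpl29, and 0.896 for Rpl22. These libraries, of 14575652 and 8616616 counts, were also the least alike of any pair within a RIP group (Pearson's r of log2 CPM 0.978 over tested genes, against 0.984 to 0.993 for the others). Without GFP-Mkrn3 IP library 3, 8 members were called above input and 20 below, beside 17.8% and 16.5% of all tested genes, with Rpl10 among the higher (0.78, adjusted p = 0.000852). Without IP library 2, 1 was called above and 23 below, beside 10.9% and 10.2%. The part of library-level differences in these calls was not tested further.

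**Figure D4:**
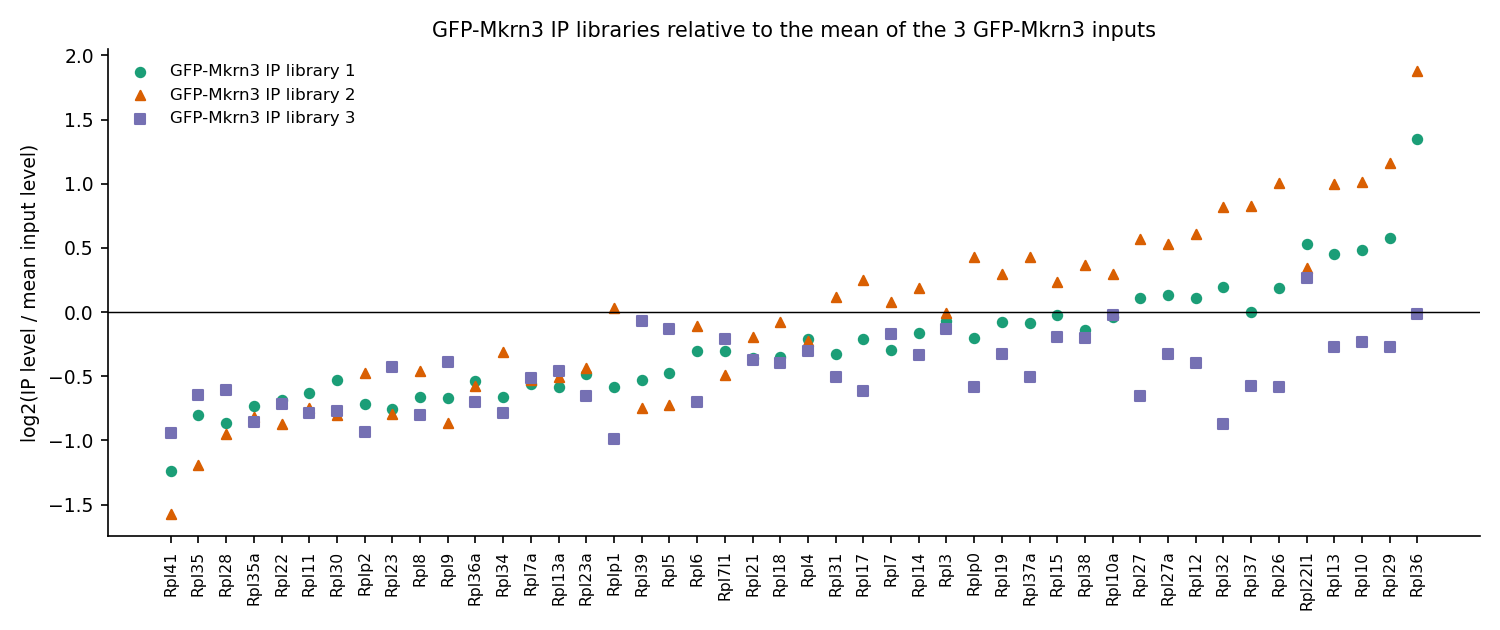
Log2 ratio of each GFP-Mkrn3 IP library to the mean of the 3 GFP-Mkrn3 inputs (y axis) for the tested members except 1 (x axis, ordered by the fitted change), with 1 symbol per library. For Rpl36 at the right end, libraries 1 and 2 (76.1 and 110 CPM) lie well above library 3 (29.5 CPM), while all 3 libraries lie below 0 for Rpl41 at the left end.

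Expression of GFP-Mkrn3 for 24 h was set against that of GFP in the inputs. No member passed the test: 0 of 47 were called, beside 0.0153% of all tested genes in either direction. DESeq2 also called 0, beside 0.0383% higher and 0.00766% lower. At an unadjusted p under 0.05 there were 5 members, beside 734 of all 13052 tested genes. Of the 47 changes 34 were negative, beside 6629 of 13052, with a median of −0.09 against −0.00. All GFP-Mkrn3 inputs lay below all GFP inputs for 12 of 47 members, beside 6.56% of all tested genes, and above them for 0, beside 7.01%. The summed share of the family was 0.939 times that of the GFP input, also without overlap (p = 0.1, two-sided exact permutation test). The lowest was Rpl22l1, the paralogue of Rpl22, with 3.68, 2.11 and 3.45 CPM in the GFP-Mkrn3 input against 7.61, 9.02 and 6.29 CPM in the GFP input (−1.30, SE 0.311, unadjusted p = 0.000527, adjusted p = 0.65). Its groups did not overlap, and its level rests on 16 to 30 counts per GFP-Mkrn3 input and 53 to 78 per GFP input. The highest was Rpl27 (0.22, adjusted p = 0.937), with overlapping groups. Rpl36 had 25.8, 27.9 and 35.9 CPM in the GFP-Mkrn3 input against 39.9, 67.9 and 30 CPM in the GFP input (−0.62, adjusted p = 0.899).

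Several rows are paralogues of another member. Rpl10l and Rpl39l, known from the male germ line, held 0 counts in all 24 libraries, which allows up to 0.0284 CPM over the RIP libraries together and 0.476 CPM over the fractionation libraries (3 counts, counting error only). Rpl3l, known from muscle, held 0 to 2 counts per RIP library, where Rpl3 held 910 to 2059. Rpl36al held 0 to 13 counts and Rpl36a 169 to 553. Rpl22l1 passed the filter and was lower in the GFP IP (−1.22, adjusted p = 0.00321), as was Rpl22 (−1.15). Rpl22l1 was called beyond GFP (1.60, adjusted p = 0.0142), and Rpl22 was not (0.40, adjusted p = 0.059). Between the IPs Rpl22 was called higher and Rpl22l1 was not. Rpl22l1 had 4.46, 3.91 and 3.71 CPM in the GFP-Mkrn3 IP against 3.98, 1.72 and 4.24 CPM in the GFP IP. Nor was Rpl22l1 called against its own GFP-Mkrn3 input, where its level was low, as given above. Whether the members of this pair differ from each other was not tested. Another 198 rows are annotated as pseudogenes named after members and held 49 to 270 counts per RIP library and 0 to 13 per fractionation library. Reads shared between such near copies can be assigned wrongly in either direction.

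Other parts of the translation apparatus were set beside the members by counts alone. Over all tested genes, 25.2% were lower and 25.1% higher in the GFP IP. In the GFP-Mkrn3 IP 12.8% were lower and 13.9% higher, and beyond GFP 13.2% were higher and 11.1% lower. The 33 small-subunit genes gave 32 lower in the GFP IP (median −1.60), 18 lower and 1 higher in the GFP-Mkrn3 IP (−0.43) and 26 higher beyond GFP (1.00), with Rps29 the highest (3.48). Genes of the mitochondrial large subunit, whose proteins are imported into mitochondria, gave 39 of 48 tested lower in the GFP IP (81.2%). In the GFP-Mkrn3 IP 8 were lower (16.7%, near the share of all tested genes) and 1 higher (median −0.12). Beyond GFP 28 were higher (58.3%, median 0.78), with Mrpl54 at 2.65. Among 20 other mRNAs known for a 5' terminal oligopyrimidine tract the picture was mixed, with 9 lower and 4 higher in the GFP IP (median −0.22), 5 lower in the GFP-Mkrn3 IP, and 5 higher and 2 lower beyond GFP (0.05). There Tpt1, a growth-related protein, had −1.87 in the GFP IP and 0.91 beyond GFP, and Hnrnpa1, a splicing factor, had −0.79 beyond GFP.

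The factors that assemble and export the large subunit gave more higher than lower calls in the GFP IP. Of 48 genes, 20 were higher and 11 lower there (41.7% and 22.9%, median 0.13), beside 25.1% and 25.2% of all tested genes. In the GFP-Mkrn3 IP 6 were higher and 4 lower (12.5% and 8.33%), beside 13.9% and 12.8%. Beyond GFP 3 were higher and 12 lower (6.25% and 25%, median −0.15), beside 13.2% and 11.1%. Mdn1, a giant ATPase that strips assembly factors from the precursor, had 1.17 in the GFP IP and −0.70 beyond GFP, while Nsa2 had −1.09 in the GFP IP. Among 14 regulators of oligopyrimidine mRNAs, 3 were higher and 1 lower beyond GFP (21.4% and 7.14%), near the shares of all tested genes for so short a list. Eif4ebp1, the translation repressor controlled by mTOR, had 2.13 and Larp1 −0.36.

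The fractionation table asks how a stable GFP-Mkrn3 line differs from unmodified cells, and it reads the members far more thinly. Their summed share of counts was 0.25% ± 0.0196 in the Mkrn3ox cytoplasm and 0.149% ± 0.00819 in the wt cytoplasm, and 0.202% ± 0.0132 in Mkrn3ox total RNA and 0.143% ± 0.0167 in wt total RNA (SD, n = 3 each). In both fractions the libraries of the lines did not overlap (p = 0.1 each, two-sided exact permutation test, the smallest possible). Small-subunit genes held 0.264% to 0.287% in the Mkrn3ox cytoplasm and 0.132% to 0.161% in the wt cytoplasm.

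Marker genes differed between the lines as well. Of the 8 neuronal markers 4 were tested, and Uchl1, a neuronal ubiquitin hydrolase, was higher in Mkrn3ox total RNA (49.9 to 127 CPM against 0 to 4.94 in wt, 4.88, adjusted p = 4.02e-05) and in the Mkrn3ox cytoplasm (148 to 210 CPM against 0 to 8.2, 5.60, adjusted p = 1.05e-05). Gnrh1, Map2 and Eno2 were not called. The list summed to 238 to 341 CPM in Mkrn3ox total RNA and 115 to 151 CPM in wt total RNA, and to 397 to 448 CPM in the Mkrn3ox cytoplasm and 127 to 243 CPM in the wt cytoplasm. Of the 7 fibroblast, endothelial and immune markers only Col1a1, a collagen, was tested, and it was higher in Mkrn3ox total RNA (20.3 to 91.5 CPM against 3.29 to 9.38, 3.05, adjusted p = 0.0262) but not called in the cytoplasm (1.75, adjusted p = 0.224). Their sum was 25.8 to 98.1 CPM in Mkrn3ox total RNA and 3.29 to 9.38 CPM in wt total RNA, and 22.5 to 35.5 CPM in the Mkrn3ox cytoplasm and 0 to 19.1 CPM in the wt cytoplasm, with Cdh5, Pecam1, Cd68 and Aif1 at 0 in all 12 libraries. None of the 6 glial markers was tested, and Gfap and Mog were at 0. The part of these differences in the members' values was not tested.

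Levels of the same rows differed between the tables. In this paragraph CPM are counts over the library total, without TMM scaling. The wt total level was a median of 0.14 times the GFP input level over the 47 members tested in RIP, against 0.16 over 13025 tested genes. For Rpl31 the ratio was 5.64 and for Rpl32 2.04, and Rpl24, a protein added late in the cytoplasm and not tested, had 9.47 CPM in wt total RNA and 0.115 CPM in the GFP input. These rows overlap annotated protein-coding genes (Tbc1d8, Cand2 and Zbtb11). So do 7 further members when an overlapping lncRNA is counted, with ratios from 0 (Rpl35a) to 0.722 (Rpl5). Ratios above 1 were also found for Rpl29 (1.26) and Rpl30 (1.13), which no annotated protein-coding gene or lncRNA overlaps. In all, 4 of the 47 members were above 1, beside 14.8% of tested genes. No source used here states the strand setting of the counting. Reads of a member and of an overlapping gene cannot be told apart, and each fractionation value is that of the named row.

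By gene, 1 of 27 tested members was higher and 0 lower in Mkrn3ox against wt total RNA, beside 3.56% of all tested genes higher and 3.83% lower. In the cytoplasm 2 were higher and 1 lower, beside 4.31% and 6.14%. Without TMM, on library sizes alone, the cytoplasmic split was 6 higher and 0 lower, beside 10.1% and 3.76% of all tested genes, and the median over all tested genes was 0.375 under that scaling, against 0.03 with TMM. With TMM the shares called are near the background in both fractions. The members' median was 0.42 in total RNA, against −0.01 over all tested genes, and 0.64 in the cytoplasm, against 0.03. Small-subunit medians were 0.70 and 0.78. All Mkrn3ox libraries lay above all wt libraries for 9 of 27 members in each fraction, beside 12.9% and 13.4% of all tested genes. They lay below for 1 in each, beside 12.4% and 14.3%. The family was not tested as a set. Changes were positive in both fractions for 16 of 27 members, negative in both for 2 and of opposite sign for 9.

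The members called in one fraction can be followed into the other. Rpl22 had 60.3, 105 and 44.9 CPM in Mkrn3ox total RNA against 19.8, 16.5 and 14.7 CPM in wt total RNA (2.03, adjusted p = 0.0206), and 74.8, 50.9 and 62.7 CPM in the Mkrn3ox cytoplasm against 41.4, 46.7 and 8.2 CPM in the wt cytoplasm (0.94, adjusted p = 0.29). The groups did not overlap in either. Its call in total RNA was lost without wt total library 2 (adjusted p = 0.074) or 3 (0.0922) or Mkrn3ox total library 2 (0.145). The Rpl22 row overlaps the lncRNA counted above (9430083M05Rik). Rplp2 had 212, 171 and 136 CPM in the Mkrn3ox cytoplasm against 36.2, 70.1 and 24.6 CPM in the wt cytoplasm (1.95, adjusted p = 0.00213), and in total RNA 0.72 (adjusted p = 0.31). The cytoplasmic libraries did not overlap.

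Rpl11 rests on few counts. It had 92.3, 28 and 35.5 CPM in the Mkrn3ox cytoplasm against 5.17, 6.37 and 13.7 CPM in the wt cytoplasm (2.61, adjusted p = 0.0336), from 2 to 37 counts per fractionation library. Its change was 1.38 in total RNA (adjusted p = 0.396), and the cytoplasmic call was lost without wt cytoplasm library 1 or 2 (adjusted p = 0.115 and 0.112) or Mkrn3ox cytoplasm library 1 or 3 (0.285 and 0.0512). Its partner Rpl5 had −0.08 in the cytoplasm (adjusted p = 0.92) and 0.35 in total RNA.

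Rpl32 had 87.3, 130 and 132 CPM in the Mkrn3ox cytoplasm against 248, 278 and 241 CPM in the wt cytoplasm (−1.13, adjusted p = 0.0128), without overlap, and −0.46 in total RNA (adjusted p = 0.422). The call was lost without wt cytoplasm library 2 (0.0532) or Mkrn3ox cytoplasm library 1 (0.0714). The row lies over Cand2, as given above.

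**Figure D5:**
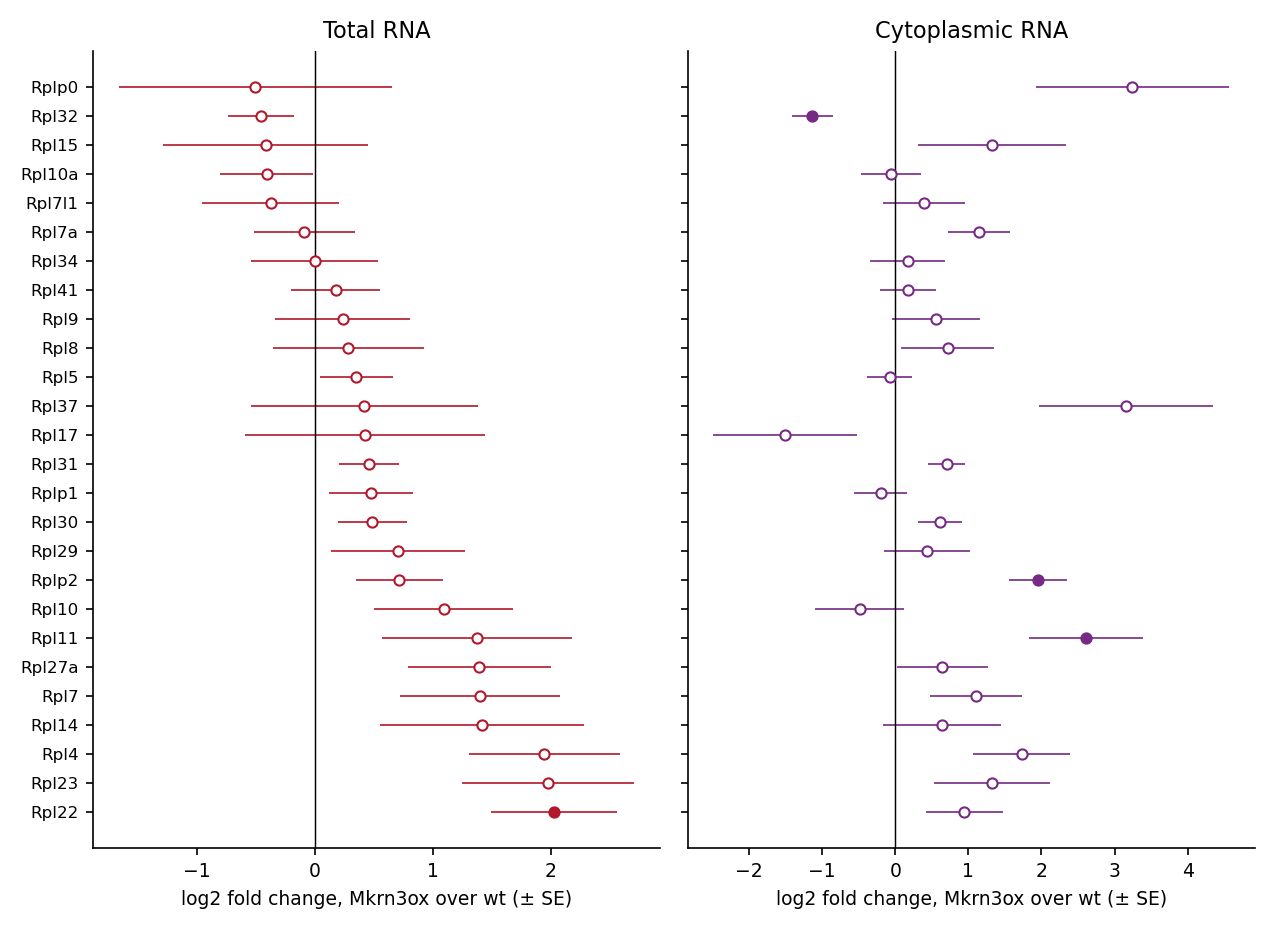
Log2 fold change of Mkrn3ox over wt (x axis, ± SE) for the tested members except 1 (rows, ordered by the total RNA value) in total RNA (left) and cytoplasmic RNA (right), filled where the adjusted p is under 0.05. Rpl22 is filled in total RNA (2.03), and Rplp2 (1.95), Rpl11 (2.61) and Rpl32 (−1.13) in the cytoplasm.

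Whether members lay differently between cytoplasm and total RNA was tested in each line. In wt cells 0 of 27 were called in the cytoplasm against total RNA, beside 3.78% of all tested genes in either direction. At an unadjusted p under 0.05 there were 2 members, beside 805 of all 5033 tested genes. In Mkrn3ox cells 0 were called, beside 4.53% in either direction, with 3 members at an unadjusted p under 0.05, beside 898 of all 5033 tested genes. The summed share given above was 1.24 times as high in the Mkrn3ox cytoplasm as in Mkrn3ox total RNA, without overlap (p = 0.1), and 1.04 times as high in the wt cytoplasm as in wt total RNA, with overlap (p = 0.7, both two-sided exact permutation tests). These shares are over library totals. With TMM the members' CPM summed to a mean of 1794 in the wt cytoplasm and 1479 in wt total RNA, and to 2385 and 1944 in Mkrn3ox cells. On that scale the libraries did not overlap in either line. The members' median change was 0.40 in wt cells, against 0.01 over all tested genes, and 0.14 in Mkrn3ox cells, against −0.00. DESeq2 called 0 in wt cells, beside 1.03% of all tested genes higher and 4.31% lower. In Mkrn3ox cells it called 1 higher, beside 1.47% higher and 4.85% lower. The extremes were Rpl17 (2.07, adjusted p = 0.312) and Rpl37 (−2.25, adjusted p = 0.375) in wt cells, and Rpl11 (2.03, adjusted p = 0.123) and Rpl23 (−0.90, adjusted p = 0.555) in Mkrn3ox cells. The Rpl17 value in wt cells rests on wt cytoplasm library 2, which held 125 CPM where the others held 0 and 13.7, and it was −0.71 without that library.

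The cytoplasm-to-total ratio itself did not differ by the test between Mkrn3ox and wt cells. None of 27 members was called by edgeR, beside 0.219% of all tested genes in either direction. DESeq2 also called 0, beside 0.219% higher and 0.616% lower. At an unadjusted p under 0.05 in edgeR there were 2 members, beside 485 of all 5033 tested genes. The median was −0.01. Rplp0 had the highest value (3.74, 95% interval 0.29 to 7.20, adjusted p = 0.512) and Rpl17 the lowest (−1.93, adjusted p = 0.719). Rplp2 had 1.24 (95% interval 0.19 to 2.29, adjusted p = 0.462).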

How the data were processed

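The authors deposited raw counts per gene, 57010 rows for each of the fractionation and RIP experiments, without normalization. Per the submitters' processing notes, cutadapt, STAR and HTSeq were used with mm10. Their versions, the annotation, the strand setting and the handling of molecular identifiers were not given in the sources used here. Groups came from the labels, and names in the RIP table were taken by gene identifier from the fractionation table.

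Counts of each experiment were fitted with edgeR 4.0.16 in R 4.3.3 (TMM, filterByExpr by group, group means over 12 libraries, quasi-likelihood F test, two-sided, Benjamini-Hochberg over all tested genes, 10 contrasts). The fits were tested on simulated data. DESeq2 1.42.0, other scalings and filters, replicate blocks, added pseudogene counts and leave-outs were alternatives. Shares were compared by exact permutation, and figures drawn with matplotlib 3.10.9 in Python 3.11.15. Intervals and limits cover counting error only, or the spread between libraries where a fit gives them.

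The members, the comparison lists and the naming rule were chosen with earlier results of these data known. Named are up to 8 called members per direction and contrast, the paralogue rows with their partners, the stalk and 5S proteins, the extremes, members with a mean under 5 CPM, and up to 4 called genes per list. Rpl13, Rpl19, Rpl23a, Rpl31, Rpl4 and Rpl6 were named beyond it, after their values were seen, as were the positions and gene spans. Sequences are from RefSeq tables (GRCm38.p6), where all 52 members were matched by symbol. The values of 1 member are not reported here, and it stays in the counts and medians.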

Additional observations from a re-analysis of the deposited data

Results flagged for a closer look

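Rpl36 moved in opposite directions over input with the 2 plasmids. It was called higher in the GFP-Mkrn3 IP than in the GFP-Mkrn3 input (1.27, adjusted p = 0.00692) and lower in the GFP IP than in the GFP input (−1.58, adjusted p = 0.00103). The difference, tested as an interaction in edgeR's quasi-likelihood fit, was 2.86 (SE 0.479, adjusted p = 0.000434). Against the mean of its inputs it was above in 2 of 3 GFP-Mkrn3 IP libraries and below in 3 of 3 GFP IP libraries. Its GFP-Mkrn3 IP libraries spread from 29.5 to 110 CPM, and the part of that spread in the result was not tested.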

How the results depend on the processing

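The numbers of members called in the GFP IP, the GFP-Mkrn3 IP, the GFP-Mkrn3 IP against the GFP IP and beyond GFP stayed within 1.5 times under every alternative. Leaving out single libraries gave 43 to 43, 18 to 28, 40 to 43 and 34 to 41 calls there, 0 to 1 in Mkrn3ox against wt total RNA, 1 to 3 in the cytoplasm, and 0 in the inputs, in cytoplasm against total RNA and in its difference between lines. Of all tested genes the leave-outs called 21.6% to 24% lower in the GFP IP. In the GFP-Mkrn3 IP they called 8.89% to 17.8% higher and 8.85% to 16.5% lower. Between the IPs 16% to 22.5% were higher, and beyond GFP 9.83% to 17.2%. In Mkrn3ox against wt total RNA 1.99% to 2.78% were higher and 2.04% to 2.64% lower. In the cytoplasm 2.32% to 2.92% were higher and 3.85% to 4.83% lower.

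Counts that moved further were total RNA with DESeq2 (2), the cytoplasm on library sizes alone (6), cytoplasm against total RNA in Mkrn3ox cells with DESeq2 (1) or the compared groups alone (1), and the inputs with no filter on low counts (2, both lower, Rpl22l1 among them). Of all tested genes these settings called, in that order, 4.45% higher and 5.11% lower, 10.1% and 3.76%, and 1.47% and 4.85%. For the compared groups alone it was 2.35% and 5.05%, and for the inputs 0.0837% and 0.0457%. The cause was not tested. Library sizes alone shifted the median of all genes by 0.345 in the cytoplasm, 0.178 between the IPs and 0.195 beyond GFP, and the members' medians there were 0.956, 0.984 and 1.14. The median of all genes also shifted by −0.234 in cytoplasm against total RNA of wt cells. For the difference of that ratio between the lines the shift was 0.248.

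The replicate number was not shown to pair libraries. Correlations of same-numbered deviations ran from −0.0506 to 0.0334 in fractionation and −0.187 to 0.316 in RIP, above 0.1 in 3 of 18 RIP pairs. With the replicate block across groups the calls were 1 in total RNA, 2 in the cytoplasm, 43 in the GFP IP, 25 in the GFP-Mkrn3 IP, 44 between the IPs, 36 beyond GFP and 0 elsewhere. Of all tested genes that block called 3.1% higher and 3.58% lower in total RNA, and 3.87% and 5.56% in the cytoplasm. In the GFP IP it called 25.2% and 25.3%, and in the GFP-Mkrn3 IP 13.7% and 13.2%. Between the IPs it called 20.3% and 17.2%, and beyond GFP 13.3% and 11.2%.

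Of 2203 alternative values of single members, 2100 kept direction and side of the threshold, 40 lost and 19 gained a call, and 44 changed sign, none of them in a comparison where that member was called. On library sizes alone, Mkrn3ox against wt cytoplasm gave 0.259 for Rpl5 and 0.161 for Rplp1, the GFP-Mkrn3 IP against its input 0.0166 for Rpl3 and 0.0390 for Rplp0, and enrichment beyond GFP 0.133 for Rpl3. With a filter at a mean of 20 counts, Rpl5 had 0.0328 in the cytoplasm and 0.0034 in Mkrn3ox cytoplasm against total RNA, and Rpl3 had 0.0045 in the GFP IP. DESeq2 gave 0.0145 there and its size factors 0.0143.

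Single leave-outs spanned 0 for the other members that changed sign. In Mkrn3ox against wt they gave −2.10 to 0.957 for Rplp0 in total RNA, and −0.846 to 0.168 for Rpl10, −2.09 to 1.24 for Rpl17, −0.315 to 0.153 for Rpl5 and −0.459 to 0.170 for Rplp1 in the cytoplasm. In cytoplasm against total RNA they gave −0.713 to 3.11 for Rpl17 in wt cells, and −0.385 to 0.240 for Rpl22, −1.98 to 0.403 for Rpl23, −0.268 to 0.200 for Rpl5 and −0.316 to 0.0668 for Rplp1 in Mkrn3ox cells. The difference between lines ranged from −2.99 to 0.837 for Rpl17 and −1.21 to 0.149 for Rpl7. In the inputs they gave −0.0022 to 0.144 for Rpl22, −0.223 to 0.169 for Rpl36a, −0.180 to 0.0022 for Rpl39, −0.125 to 0.0296 for Rpl7l1, −0.223 to 0.0391 for Rplp1 and −0.173 to 0.0886 for Rplp2. Rpl3 ranged from −0.104 to 0.0446 in the GFP IP and from −0.129 to 0.0263 beyond GFP, Rplp0 from −0.379 to 0.152 in the GFP-Mkrn3 IP, and Rpl22l1 from −0.0280 to 0.501 between the IPs.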
